A study of Mus musculus with 9 samples.

Results

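The 8 genes described here encode AP-1 transcription factors: Jun, Junb, Jund, Fos, Fosb, Fosl2, Jdp2, and Batf. They were listed by name and are 8 of 54119 genes summed from the transcripts of the table. The list was chosen by the normalized counts of Jdp2, which had been noted as higher after Chd8 siRNA than after control siRNA, so that difference is described here without a test. All 8 passed the filter on low counts, which left 16273 genes for testing. Fosb passed with the lowest counts of the members.

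AP-1 is not one protein but a family of dimers. Jun, Fos, and Batf proteins carry a basic region that contacts DNA and a leucine zipper that joins 2 subunits, and the dimers bind a short palindromic element, TGANTCA, in promoters and enhancers. Jun proteins can pair with each other or with Fos proteins, whereas Fos proteins need a Jun partner. Jdp2 (Jun dimerization protein) and Batf have a zipper but lack the activation domains of Jun and Fos, and Jdp2 is known as a repressor in dimers with Jun proteins. In microglia and other macrophages, AP-1 acts downstream of MAP kinases that are switched on by bacterial products, cytokines, and culture itself, and Fos, Fosb, Jun, and Junb are classic immediate early genes, whose mRNA appears within minutes of a stimulus and decays quickly.

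The study compared primary microglia, the resident macrophages of the brain, grown from C57BL/6J mice and given control siRNA, Chd8 siRNA, or Tsc2 siRNA, with 3 libraries in each group. Small interfering RNAs (siRNAs) are duplexes that direct the degradation of a matching mRNA. Chd8 encodes a chromatin remodeler and Tsc2 an inhibitor of mTOR complex 1 signaling, and both are genes in which mutations are associated with autism. The cells were shaken off mixed glial cultures of embryonic brain, each replicate came from the culture of a different brain, and each target was hit with 1 siRNA product, so that effects of a second siRNA sequence cannot be compared. The control group received siRNA as well, so all 3 groups share the transfection. On lipopolysaccharide (LPS), the results text of the study gives LPS stimulation before RNA-seq, and the RNA-seq is not among the experiments that its methods list as done without LPS. The RNA-seq paragraph of the methods gives RNA isolation after siRNA treatment without naming LPS, and neither do the sample labels.

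The targeted mRNAs were lower in their own groups, Chd8 clearly and Tsc2 by less. Levels are given as normalized CPM, counts relative to library sizes scaled by TMM factors, which do not correct for transcript length. Chd8 was at 118, 97.3, and 93.5 CPM in control siRNA libraries 1 to 3 and at 86.7, 44.5, and 38.2 CPM in Chd8 siRNA libraries 1 to 3. Tsc2 was at 40.8, 39.9, and 38.9 CPM with control siRNA and at 24.6, 30.6, and 36.4 CPM with Tsc2 siRNA. Neither group pair overlapped, and the ratio of Tsc2 mRNA to the control library of the same number was between 0.603 and 0.938. With siRNA alone in the model, neither gene was called. With replicate number in the model, Chd8 was called (log2 fold change −0.93 ± 0.14 SE, adjusted p = 0.00777, edgeR quasi-likelihood test) and Tsc2 was not (−0.39 ± 0.12 SE, adjusted p = 0.219). Under 35 alternatives the adjusted p ranged from 9.21e-08 to 1.00 for Chd8 and from 0.10 to 1.00 for Tsc2, and Chd8 no longer passed the FDR without control siRNA library 2 (log2 difference −0.85, adjusted p = 0.0586), control siRNA library 3 (−0.88, adjusted p = 0.0795), or Chd8 siRNA library 2 (−0.86, adjusted p = 0.0821). Chd8 was also called for Chd8 siRNA against Tsc2 siRNA with replicate number in the model (−0.93, adjusted p = 0.0156), and in 4 of 9 fits that left out 1 library, those without library 2 or 3 of either group, it did not pass the FDR (adjusted p up to 0.142).

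Libraries with the same replicate number resembled each other beyond their siRNA, and number 1 stood apart from numbers 2 and 3. The summed level of 12 microglia markers was 2689 to 3521 CPM over all libraries and 3295 to 3521 CPM in the libraries numbered 1. Summed markers of astrocytes (7 genes) were at 11.6 to 14.3 CPM in number 1, 23.3 to 26.4 CPM in number 2, and 46.6 to 106 CPM in number 3, and those of fibroblasts, mural, and endothelial cells (7 genes) were at 17.6 to 20.9, 30.1 to 45.5, and 96.6 to 142 CPM. Markers of neurons were at 2.91 to 19.2 CPM, of the oligodendrocyte lineage at 11.8 to 27.3 CPM, and of other leukocytes at 0.123 to 1.05 CPM, with S100a9 at 0 in every library. The part of these cells in the AP-1 values was not tested. In bulk RNA, fewer cells of a type and less RNA per cell cannot be told apart.

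The members lie at 6 places of the mouse genome (GRCm38, GENCODE). Jun is on the minus strand at chr4:95049034-95052222, Fosl2 on the plus strand at chr5:32135801-32157842, Fosb on the minus strand at chr7:19302696-19310051, Jund on the plus strand at chr8:70698949-70700616, and Junb on the minus strand at chr8:84974484-84978718. Fos at chr12:85473890-85477273, Jdp2 at chr12:85599027-85639878, and Batf at chr12:85686669-85709087 form a cluster on the plus strand, with 122 kb between Fos and Jdp2 and 46.8 kb between Jdp2 and Batf. The 3 neighbours differed in level and in pattern, as described for each.

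Upstream sequences are shown for Jun, whose promoter is a textbook site of AP-1 binding, and for the 3 neighbours on chr12. They are from RefSeq (GRCm38.p6), 5′ to 3′ on the strand of the gene, and end at the base before the first exon of the gene in GENCODE. Capitals mark matches to the motifs named after the sequences, and the sequence of Jdp2 has none.
Jun, chr4:95052223-95052472, minus strand: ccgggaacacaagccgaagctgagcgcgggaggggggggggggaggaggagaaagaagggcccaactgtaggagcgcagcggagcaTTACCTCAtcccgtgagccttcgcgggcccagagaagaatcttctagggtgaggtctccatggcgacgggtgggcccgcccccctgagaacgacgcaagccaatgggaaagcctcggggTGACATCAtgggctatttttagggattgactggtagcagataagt
Fos, chr12:85473640-85473889, plus strand: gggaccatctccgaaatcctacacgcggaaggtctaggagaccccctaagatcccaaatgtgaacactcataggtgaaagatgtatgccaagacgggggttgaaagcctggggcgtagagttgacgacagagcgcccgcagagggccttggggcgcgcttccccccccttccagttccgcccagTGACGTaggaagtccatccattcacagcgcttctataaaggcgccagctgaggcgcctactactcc
Jdp2, chr12:85598855-85599026, plus strand: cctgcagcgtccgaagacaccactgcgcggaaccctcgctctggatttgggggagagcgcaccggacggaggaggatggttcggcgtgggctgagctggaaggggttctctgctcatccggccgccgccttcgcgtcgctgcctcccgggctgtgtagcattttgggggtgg
Batf, chr12:85686470-85686668, plus strand: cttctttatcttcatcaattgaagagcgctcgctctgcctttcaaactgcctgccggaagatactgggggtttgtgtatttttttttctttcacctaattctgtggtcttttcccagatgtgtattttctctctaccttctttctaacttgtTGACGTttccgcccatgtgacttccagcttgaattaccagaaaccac

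The AP-1 element TGANTCA, searched on both strands in windows of 300 bases around annotated starts, was in 7.81% of 32851 windows in the genome and in none of the windows of the 8 members. The longer palindrome TGACGTCA, known as the cAMP response element, was in 1.79% of windows, and the serum response element in 1.63%, and neither was in a member window. After the sequences had been read, 3 further motifs were searched. The Jun window held TGACATCA 45 bases and TTACCTCA 164 bases before the start, both variants known from the Jun promoter, which were in 3.62% and 0.889% of all windows. TGACGT, a part of the cAMP response element that TGACGTCA contains, was in 7.51% of windows and stood 66 bases before the start of Fos and 98 before that of Batf. It also stood 114 bases before the second of 3 starts that RefSeq annotates for Jdp2, which lies inside the gene. Distances are to the RefSeq start, which for Batf lies downstream of the GENCODE start. A match describes the letters of the window, and binding was not measured. The RefSeq windows of Jund and Fosl2 do not lie at the starts that GENCODE gives for these genes, that of Fosl2 being inside the gene, so they do not describe the starts of the main transcripts counted here.

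Per transcript length, Junb was the most abundant member and Fosb the least. The order of the control siRNA means was Junb (92.9 ± 6.53 SD, n = 3, in counts per length, scaled to the same total in every library), Jdp2 (35.6 ± 21.6), Jund (26.0 ± 5.78), Jun (12.9 ± 2.62), Fosl2 (9.85 ± 9.38), Batf (7.80 ± 1.36), Fos (7.73 ± 3.42), and Fosb (0.147 ± 0.0478). In control siRNA libraries the range of Junb lay above that of Jdp2, the range of Jund above that of Jun, and the range of Fos above that of Fosb. The ranges of all other neighbours in the order overlapped, so their places cannot be told apart. By their means, Junb, Jdp2, and Jund held the first 3 places in all 3 groups and Fosb the last. The place of Jdp2 rests on the libraries numbered 2 and 3. In the control, Chd8, and Tsc2 siRNA libraries numbered 1, Jdp2 was at 11.2, 16.2, and 10.9 and Jund at 31.6, 31.7, and 31.0. Jun and Fosl2 also lay above Jdp2 in those libraries.

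**Figure D1:**
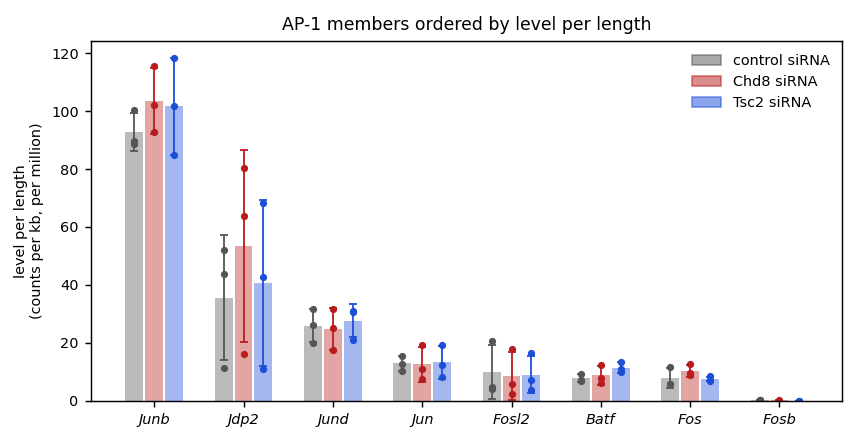
Level per transcript length (counts per length, scaled to the same total in every library) of each AP-1 member, with bars at the group mean, error bars of 1 SD, and a point for each of 3 libraries. Junb is at 84.9 to 118 in every library and Fosb is near 0, while Jdp2 and Fosl2 vary widely within each group.

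The transcripts behind these levels were simple for most members. Jun and Jund have 1 annotated transcript each, a single exon. The main protein-coding transcript of Jdp2, which has 4 exons, took 83.6% to 92.5% of the Jdp2 counts in each library, and that of Batf took 88.7% to 97.5% of the Batf counts. The main transcript of Fosl2 took 64.4% to 86.9% of the Fosl2 counts and the remainder fell on 2 retained-intron transcripts. That of Fos took 67.9% to 86.7% of the Fos counts, and the remainder fell on processed transcripts without a coding label. Junb overlaps Prdx2, Jun overlaps Junos, Jund overlaps Gm11175, and Jdp2 overlaps Gm47863, each on the opposite strand, with mean counts of 886 for Prdx2 and between 5 and 35.3 for the other 3. The strand setting of the quantification is not given in the sources used here, so reads in the shared stretches may not be told apart.

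The first question was whether the members changed with Chd8 or Tsc2 siRNA. With siRNA alone in the model, no member tested was called in any of the 3 comparisons with an FDR under 0.05 and at least 1.5-fold change (edgeR quasi-likelihood test, Benjamini-Hochberg adjusted over 16273 genes), and the call rate over all genes was 0% in each. Jdp2 was tested for Tsc2 siRNA against control siRNA alone, because its choice rests on both comparisons with Chd8 siRNA. At an unadjusted p under 0.05, 622 genes stood out for Chd8 siRNA against control siRNA, 425 for Tsc2 siRNA against control siRNA, and 504 for Chd8 siRNA against Tsc2 siRNA, and no member tested was among them. DESeq2 called 9, 6, and 5 genes and limma-voom 0, again without a member tested. With replicate number added to the model, the call rates were 0.535%, 0.387%, and 0.221% of 16273 genes, that is 87, 63, and 36 genes, and no member tested was among them. At an unadjusted p under 0.05 this model had 2091, 1737, and 1745 genes, among them Junb and Fos for Chd8 siRNA against control siRNA, Batf for Tsc2 siRNA against control siRNA, and Fos and Batf for Chd8 siRNA against Tsc2 siRNA. No member tested was called under any of 35 alternatives.

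Jdp2 was higher with Chd8 siRNA than with control siRNA within each replicate number, and the groups overlapped nonetheless because of the spread between numbers. Its level was 32.4, 181, and 118 CPM in control siRNA libraries 1 to 3, 46.0, 317, and 181 CPM in Chd8 siRNA libraries, and 31.6, 230, and 114 CPM in Tsc2 siRNA libraries. The Chd8 siRNA library was 1.42, 1.75, and 1.53 times the control library of the same number, and 1.46, 1.38, and 1.58 times the Tsc2 siRNA library. The fitted log2 fold change against control was 0.72 with siRNA alone and 0.64 with replicate number in the model, and against Tsc2 siRNA it was 0.53 and 0.55. No test is given for these contrasts, which share the Chd8 siRNA libraries, because the choice of the gene rests on them. Over 21 fits of both models that left out a library or a replicate number, the value against control ran from 0.041, with siRNA alone and without Chd8 siRNA library 2, to 1.27, with siRNA alone and without control siRNA library 2. With replicate number in the model it was 0.54 without control siRNA library 2. The difference between Tsc2 siRNA and control siRNA, which the choice did not use, was 0.09 ± 0.090 SE on the log2 scale with replicate number in the model (95% interval −0.10 to 0.28, adjusted p = 0.806, between 0.686 and 1.00 under 35 alternatives), and its ratios at the 3 numbers were 0.974, 1.27, and 0.969.

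**Figure D2:**
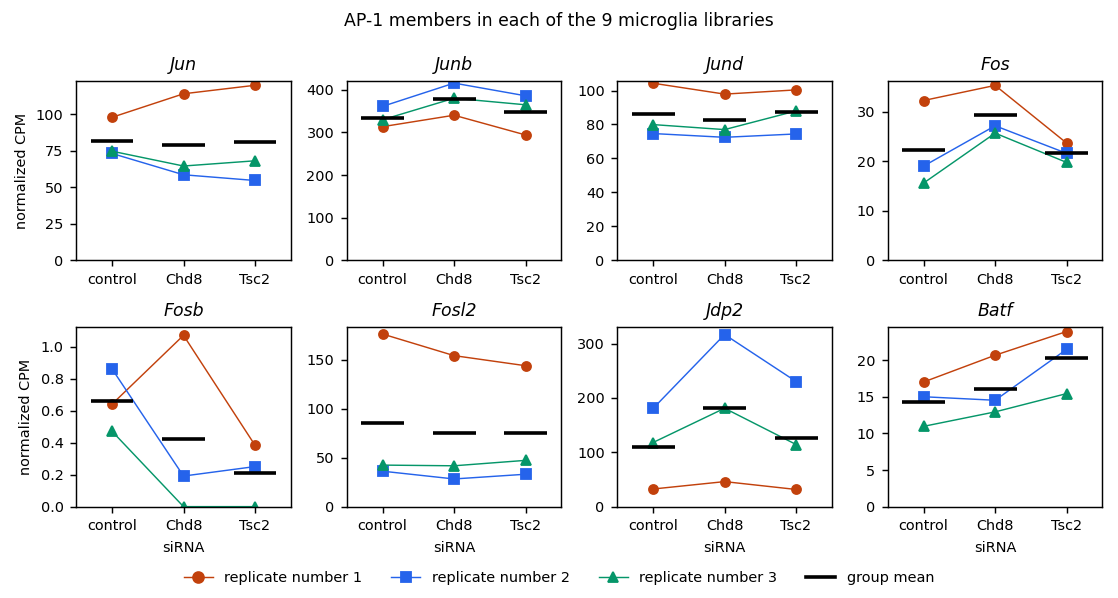
Normalized CPM (not corrected for length) of the 8 AP-1 members in the 9 libraries, by siRNA on the x axis; each line joins the 3 libraries of a replicate number and black bars are group means. Jdp2 is at 31.6 to 46.0 CPM in the libraries numbered 1 and at 114 to 317 CPM in the others, and Fosl2 is at 144 to 176 CPM in number 1 and 28.3 to 47.3 CPM in the others.

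Of the Jun proteins, the core partners of AP-1 dimers, none passed the test. Jun was at 97.8, 73.1, and 74.7 CPM with control siRNA, 114, 58.6, and 64.5 CPM with Chd8 siRNA, and 120, 54.6, and 68.1 CPM with Tsc2 siRNA. In both siRNA groups its level lay above the control library at number 1 and below it at numbers 2 and 3. The log2 difference with replicate number in the model was −0.11 for Chd8 siRNA (95% interval −0.35 to 0.14) and −0.09 for Tsc2 siRNA (−0.33 to 0.16). A change as large as 1.5-fold lay outside both intervals in that model only. With siRNA alone in the model, the biological coefficient of variation of Jun was 0.292 instead of 0.106, so no such limit is drawn there.

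Junb, which activates transcription less strongly than Jun in many settings, was at 314, 361, and 330 CPM with control siRNA, 341, 416, and 380 CPM with Chd8 siRNA, and 294, 386, and 365 CPM with Tsc2 siRNA. The groups overlapped. With Chd8 siRNA it was 1.09 to 1.15 times the control library at all 3 numbers, and the log2 difference of 0.17 ± 0.070 SE with replicate number in the model had an adjusted p of 0.294 (between 0.102 and 1.00 under 35 alternatives). Jund, the Jun protein that many resting cells express steadily, was at 104, 74.7, and 79.9 CPM with control siRNA, 97.9, 72.5, and 77.0 CPM with Chd8 siRNA, and 100.4, 74.4, and 88.0 CPM with Tsc2 siRNA. With replicate number in the model, its log2 differences from control were −0.06 (95% interval −0.24 to 0.11) and 0.03 (−0.15 to 0.20), the smallest of the Jun proteins in that model.

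Of the Fos proteins, Fos had a higher mean with Chd8 siRNA than in the other groups but did not pass the test. Fos was at 32.3, 19.1, and 15.6 CPM with control siRNA, 35.4, 27.2, and 25.7 CPM with Chd8 siRNA, and 23.7, 21.6, and 19.8 CPM with Tsc2 siRNA. All Chd8 siRNA libraries lay above all Tsc2 siRNA libraries, which was the case in either direction for 8.44% of all genes (two-sided exact permutation test p = 0.10, the smallest that 3 libraries against 3 allow), and the Chd8 and control groups overlapped. The main Fos transcript took 68.4% of the Fos counts in Chd8 siRNA library 2 and 84.4% in Tsc2 siRNA library 1. By that transcript alone, the former library lay below the latter and the groups overlapped. The ratio to the control library of the same number was 1.09, 1.43, and 1.64 with Chd8 siRNA and 0.734, 1.13, and 1.27 with Tsc2 siRNA. With replicate number in the model, the log2 difference of Chd8 siRNA was 0.43 ± 0.15 SE from control (adjusted p = 0.194, between 0.0614 and 1.00 under 35 alternatives) and 0.42 ± 0.15 SE from Tsc2 siRNA (adjusted p = 0.285, between 0.134 and 1.00). The value against control ran from 0.20 to 0.77 over 21 fits of both models that left out a library or a replicate number. For Tsc2 siRNA against control the value was near 0, at 0.01 with replicate number in the model and −0.04 without it.

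Fosb, an immediate early gene, was close to the limit of detection. It was at 0.640, 0.861, and 0.471 CPM with control siRNA, 1.07, 0.191, and 0 CPM with Chd8 siRNA, and 0.384, 0.25, and 0 CPM with Tsc2 siRNA, where 3 counts correspond to 0.0903 to 0.177 CPM. Its counts were 17, 14, and 11 with control siRNA, 31.8, 3, and 0 with Chd8 siRNA, and 9, 5, and 0 with Tsc2 siRNA. Fosb thus passed the filter on low counts through the control libraries and Chd8 siRNA library 1, so its lower values elsewhere are given as a description, with no test. Its counts were spread over 4 of 7 annotated transcripts, at means of 1 to 3.42 counts, so no isoform is described.

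Fosl2, which encodes Fra-2 and lacks the activation domain of Fos, was at 176, 36.2, and 42.5 CPM with control siRNA, 154, 28.3, and 41.7 CPM with Chd8 siRNA, and 144, 33.1, and 47.3 CPM with Tsc2 siRNA. The spread between numbers was far larger than any difference between siRNAs. The log2 difference from control with replicate number in the model was −0.19 ± 0.10 SE for Chd8 siRNA (adjusted p = 0.465, between 0.360 and 1.00 under 35 alternatives) and −0.09 ± 0.10 SE for Tsc2 siRNA. Without replicate number the 95% intervals were as wide as −1.97 to 1.60, so that differences of 2-fold in either direction were not detectable in that model.

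Batf, which in immune cells pairs with Jun proteins and binds beside interferon regulatory factors, had its highest values with Tsc2 siRNA. It was at 17.0, 15.0, and 11.0 CPM with control siRNA, 20.7, 14.5, and 12.9 CPM with Chd8 siRNA, and 23.9, 21.5, and 15.4 CPM with Tsc2 siRNA. The Tsc2 siRNA library was 1.40, 1.43, and 1.41 times the control library of the same number, although the groups overlapped (two-sided exact permutation test p = 0.200). The log2 difference was 0.50 ± 0.25 SE with siRNA alone (adjusted p = 1.00) and 0.50 ± 0.14 SE with replicate number in the model (adjusted p = 0.145, between 0.0535 and 1.00 under 35 alternatives), so it was not called. Chd8 siRNA was at 0.676 to 0.865 times Tsc2 siRNA, with a log2 difference of −0.34 ± 0.14 SE and an adjusted p of 0.385 (between 0.292 and 1.00).

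**Figure D3:**
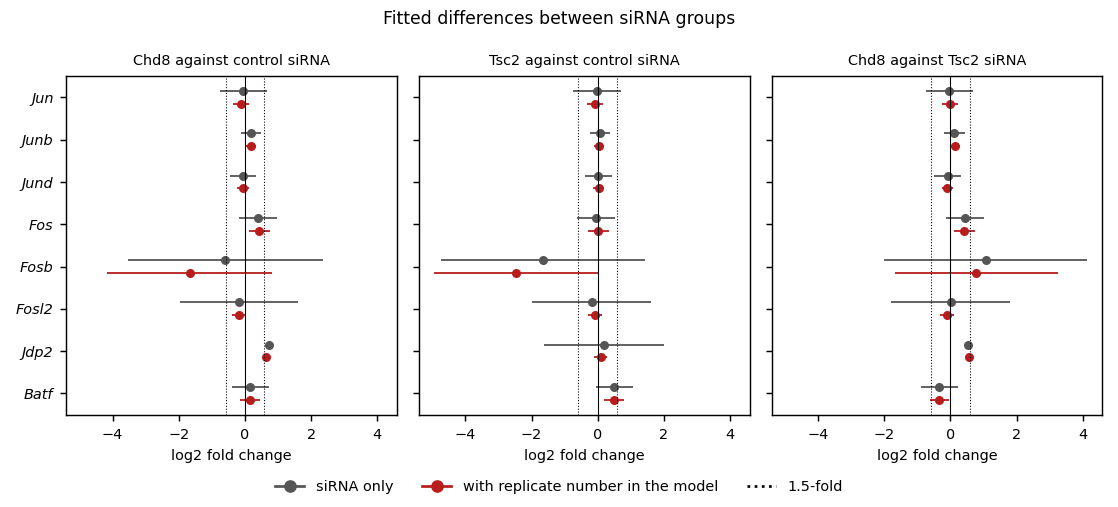
Log2 fold change of each AP-1 member in the 3 comparisons, with siRNA alone in the model (grey) and with replicate number added (red); lines are 95% intervals, left out for Jdp2 where Chd8 siRNA is compared, and dotted lines mark 1.5-fold. Intervals drawn for Fosb are no test, because it passed the filter on low counts mainly through the control libraries. Those of the tested members with replicate number in the model stay within 0.80 of 0.

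Fosb is left out of the following counts because it passed the filter mainly through the control libraries. Of the other 7 members, 5 went the same way at all 3 replicate numbers for Chd8 siRNA against control siRNA: Junb, Fos, and Jdp2 were higher and Jund and Fosl2 lower. The share over all genes was 36%. For Tsc2 siRNA against control siRNA it was 1 of 7 (Batf, higher) beside 31.8% of all genes, and for Chd8 siRNA against Tsc2 siRNA 5 of 7 (Junb, Fos, and Jdp2 higher, Jund and Batf lower) beside 32.1%. Both counts of 5 include Jdp2, whose higher level with Chd8 siRNA was behind its choice, so they are a description. Junb, Fos, and Jdp2 also moved together within replicate numbers (Pearson r of 0.84 to 0.95), so they are not separate observations. Groups that did not overlap were found for 0, 0, and 1 of 7 members, beside 9.09%, 8.11%, and 8.44% of all genes. The 1 member was Fos, with all its transcripts summed. The median log2 difference of all 8 members with siRNA alone in the model was 0.06, 0.00, and 0.06 in the 3 comparisons, beside −0.018, −0.018, and 0.0048 over all genes tested, and both comparisons with Chd8 siRNA include Jdp2 in the contrasts behind its choice. The comparisons share libraries, so their values are given side by side only.

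The members varied more with replicate number than with siRNA. Jdp2 was at 31.6 to 46.0 CPM in the 3 libraries numbered 1 and at 114 to 317 CPM in the other 6, where the mean was 5.18 times that of number 1. Fosl2 went the opposite way, at 144 to 176 CPM in number 1 and 28.3 to 47.3 CPM in the other 6, where the mean of number 1 was 4.14 times that of the others. Jun (97.8 to 120 CPM against 54.6 to 74.7 CPM) and Jund (97.9 to 104 CPM against 72.5 to 88.0 CPM) were also higher in every library numbered 1, with means 1.68 and 1.30 times those of the others. For Junb, Fos, Fosb, and Batf the libraries numbered 1 overlapped the others.

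So 4 of 8 members had number 1 apart from the other 6 libraries, beside 18.8% of all genes. The rule for the members did not use replicate number, but number 1 was singled out from these same data. No such share was taken for numbers 2 and 3. Number 2 lay below all other libraries for Fosl2 (28.3 to 36.2 CPM) and Jund (72.5 to 74.7 CPM). Replicate number took 98.6% of the variation of Fosl2 in log2 CPM, 93.6% of Jdp2, 92.7% of Jund, 87.8% of Jun, 67.0% of Junb, 58.9% of Batf, 49.0% of Fos, and 44.6% of Fosb, where the median over all genes was 41.9% and the median for siRNA 18.0%. Jdp2 and Fosl2 were therefore the members whose error depended most on the model. Their biological coefficient of variation was 0.667 and 0.658 with siRNA alone and 0.0872 and 0.0940 with replicate number, while the median gene went from 0.344 to 0.234.

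The markers of other cells moved with the same split, with summed astrocyte markers at 11.6 to 14.3 CPM in number 1 and 23.3 to 106 CPM in the other 6, and those of fibroblasts, mural, and endothelial cells at 17.6 to 20.9 and 30.1 to 142 CPM. Jdp2, however, was highest in number 2 (mean 242 CPM) and these markers in number 3, where Jdp2 had a mean of 138 CPM. Their part in the split was not tested, and a brain, its culture, and its library preparation cannot be told apart.

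**Figure D4:**
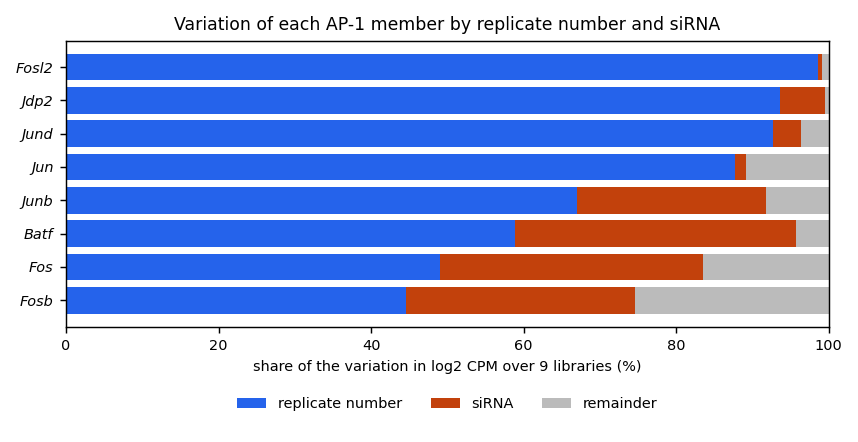
Share of the variation in log2 CPM over the 9 libraries (%) that goes with replicate number, with siRNA, and with neither, for each AP-1 member. Replicate number takes 98.6% for Fosl2 and 44.6% for Fosb, the highest and lowest of the 8.

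The genes whose levels over the 9 libraries were most like those of Jun and Jdp2 follow this split as well. For Jun the 5 highest Pearson correlations of log2 CPM were with Gpr35 (0.981), Lcn2 (0.966), Gm37589 (0.961), Gm26947 (0.959), and Anxa6 (0.958). Lcn2, an iron-binding protein of inflammation, was at 59.1 to 69.0 CPM in the libraries numbered 1 and at 12.3 to 29.0 CPM in the others. For Jdp2 the 4 highest were with Nfkb2 (0.994), Clic4 (0.990), Spryd7 (0.988), and Rcbtb1 (0.986). Nfkb2, a subunit of NF-κB, was at 419 to 477 CPM in number 1 and at 602 to 769 CPM in the others. These correlations describe 9 libraries in which number 1 lies apart from the other 6, share that split, and carry no test.

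Other genes of the pathway were counted on lists by role, and edgeR called no listed gene with siRNA alone in the model, where DESeq2 called Hmox1 for Tsc2 siRNA against control siRNA (log2 difference −0.63, adjusted p = 0.00505). The calls named here come from the model with replicate number, which called 0.535% of all genes for Chd8 siRNA and 0.387% for Tsc2 siRNA against control siRNA. As the lists were chosen with earlier results of these data known, the counts called on them are a description. Markers of other cells are given beside these calls. Summed astrocyte markers were at 14.3 to 106 CPM with control siRNA, 13.4 to 46.6 CPM with Chd8 siRNA, and 11.6 to 50.9 CPM with Tsc2 siRNA, and the median log2 difference of the 7 genes from control was −0.32 and −0.49, with none called. Those of fibroblasts, mural, and endothelial cells were at 20.9 to 142, 19.3 to 116, and 17.6 to 96.6 CPM, and 1 of 5 tested was called, the collagen gene Col1a1 for Chd8 siRNA against control siRNA (−1.31, adjusted p = 0.0218). The median difference with Chd8 and Tsc2 siRNA was −0.30 and −0.78 for 4 tested neuron markers. For 4 tested markers of the oligodendrocyte lineage it was 0.07 and −0.49, and no marker of these 2 lists was called. The part of these cells in the calls was not tested. The 11 tested microglia markers had medians of 0.12 and 0.12, and Aif1 passed the FDR but not the fold change with Tsc2 siRNA (0.53, adjusted p = 0.0452). Of 11 tested genes of the AP-1 family beyond the 8, only Fosl1 was called, for Tsc2 siRNA against control siRNA. Fosl1, which encodes Fra-1, was at 18.9, 10.1, and 31.1 CPM with control siRNA and 7.42, 5.61, and 15.6 CPM with Tsc2 siRNA. It was lower at every number and the groups overlapped, with a log2 difference of −1.08 ± 0.23 SE (adjusted p = 0.0418, between 0.00102 and 1.00 under 35 alternatives). Of 13 tested factors among other bZIP factors and interferon regulatory partners, only Cebpa was called, for Chd8 siRNA against control siRNA. Cebpa, a regulator of myeloid differentiation, was at 5.35, 6.46, and 7.97 CPM with control siRNA and 2.94, 2.74, and 2.96 CPM with Chd8 siRNA, groups that did not overlap, with a log2 difference of −1.16 ± 0.25 SE (adjusted p = 0.0405, between 0.0190 and 1.00 under 34 alternatives).

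Of 23 tested genes of the MAP kinase cascade that leads to AP-1, Map2k4 was called with both siRNAs and no other gene was. Map2k4, the kinase that activates JNK, was at 135, 86.9, and 59.1 CPM with control siRNA, 181, 164, and 124 CPM with Chd8 siRNA, and 164, 133, and 129 CPM with Tsc2 siRNA. It was higher than the control of the same number in all 6 pairs, though the groups overlapped. The log2 difference was 0.79 ± 0.12 SE with Chd8 siRNA (adjusted p = 0.00847, between 1.29e-07 and 1.00 under 35 alternatives) and 0.67 ± 0.12 SE with Tsc2 siRNA (adjusted p = 0.0202, between 3.45e-05 and 1.00), and both comparisons use the same control libraries. The median log2 difference of the 23 genes with replicate number in the model was 0.06 with Chd8 siRNA and 0.13 with Tsc2 siRNA, beside −0.019 and −0.013 over all genes tested.

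Of the 8 tested MAP kinase phosphatases, which switch this cascade off, 1 was called as higher and 1 as lower with Tsc2 siRNA. Dusp1 was at 387, 220, and 147 CPM with control siRNA and 494, 336, and 273 CPM with Tsc2 siRNA, a log2 difference of 0.63 ± 0.11 SE (adjusted p = 0.0171, between 1.48e-05 and 1.00 under 35 alternatives). Dusp4 was at 16.1, 16.4, and 26.3 CPM with control siRNA and 7.21, 8.97, and 10.6 CPM with Tsc2 siRNA, which did not overlap, a log2 difference of −1.13 ± 0.19 SE (adjusted p = 0.0115, between 1.96e-05 and 1.00). With Chd8 siRNA 0 of 8 were called, and the lowest p values were those of Dusp4 (log2 difference −0.56, adjusted p = 0.177) and Dusp2 (0.29, adjusted p = 0.182).

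Of 20 textbook AP-1 targets, 3 were called as lower with Tsc2 siRNA and none with Chd8 siRNA. Over 16273 genes, 32 were called as lower with Tsc2 siRNA and 47 with Chd8 siRNA. The list was chosen with earlier results known, so its count does not measure an enrichment of AP-1 targets. Hmox1, the heme-degrading enzyme, was at 551, 529, and 630 CPM with control siRNA and 391, 367, and 346 CPM with Tsc2 siRNA, which did not overlap, a log2 difference of −0.63 ± 0.077 SE (adjusted p = 0.00173, between 1.75e-10 and 1.00 under 35 alternatives). Spp1, the secreted protein osteopontin, was at 4414, 1688, and 2528 CPM with control siRNA and 2999, 872, and 1468 CPM with Tsc2 siRNA, a log2 difference of −0.76 ± 0.089 SE (adjusted p = 0.00153, between 2.27e-11 and 1.00). With siRNA alone in the model its unadjusted p was 0.186 (edgeR quasi-likelihood test). The study's own quantitative RT-PCR under LPS found no effect of either siRNA on Spp1. Mmp12, the macrophage elastase, was at 85.5, 354, and 356 CPM and at 68.6, 216, and 191 CPM, a log2 difference of −0.64 ± 0.11 SE (adjusted p = 0.0171, between 1.86e-05 and 1.00). The median log2 difference of the 20 genes was −0.18 with Tsc2 siRNA and 0.05 with Chd8 siRNA, beside −0.013 and −0.019 over all genes tested. With Chd8 siRNA, Hmox1 passed the FDR but not the fold change (log2 difference −0.43, adjusted p = 0.0157), and Mmp13 had the next lowest p (−0.25, adjusted p = 0.0743).

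**Figure D5:**
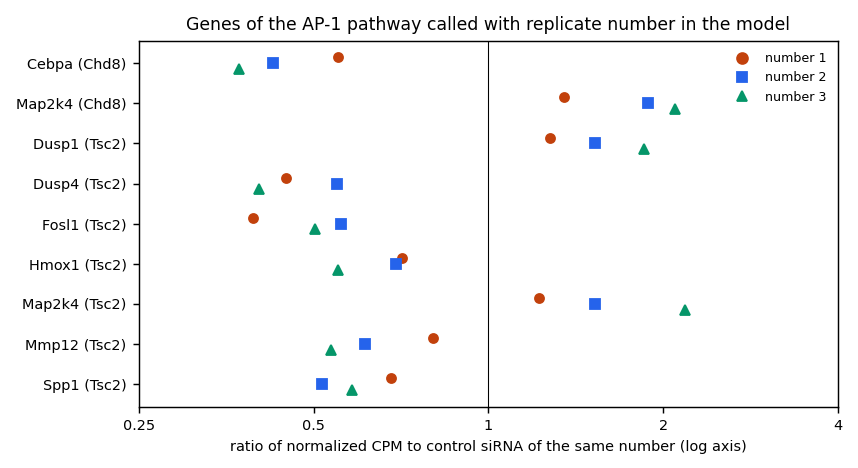
Ratio of normalized CPM to the control siRNA library of the same replicate number (log axis) for the listed pathway genes called with replicate number in the model, with the siRNA in brackets after each gene. All 3 numbers lie on one side of 1 for each gene, from 0.371 for Cebpa to 2.18 for Map2k4.

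Among 17 other immediate early genes and 12 regulators of AP-1 activity and turnover, none was called. The immediate early genes Klf6 and Zfp36 had the lowest p values for Chd8 siRNA against control siRNA, at log2 differences of 0.26 (adjusted p = 0.170) and 0.32 (adjusted p = 0.207), and Ier3 for Tsc2 siRNA against control siRNA passed the FDR at a log2 difference of −0.57 (adjusted p = 0.0129) that fell short of 1.5-fold. For Chd8 siRNA against Tsc2 siRNA, no gene of these lists reached both thresholds, and Dusp5 (0.54), Ier3 (0.51), and Spp1 (0.49) passed the FDR alone.

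Calls of single pathway genes depended on which libraries were in the fit, while the log2 differences kept their direction. Of the 9 fits with replicate number that left out 1 library each, the call was absent in 0 for Spp1, in 2 for Hmox1, in 3 for Map2k4 with Chd8 siRNA, in 4 each for Map2k4 with Tsc2 siRNA, Dusp1, Dusp4, and Mmp12, in 5 for Fosl1, and in 7 for Cebpa. Leaving out control siRNA library 3 ended the call of every one of these genes but Spp1, and so did Tsc2 siRNA library 3 for those called with Tsc2 siRNA. Chd8 siRNA library 2 ended both calls with Chd8 siRNA, and Tsc2 siRNA library 2 ended all calls with Tsc2 siRNA but those of Hmox1 and Spp1. The log2 difference in these fits ran from −0.69 to −0.54 for Hmox1, whose adjusted p was at most 0.0315, from −1.35 to −0.98 for Cebpa, from −1.30 to −0.98 for Dusp4, and from −1.31 to −0.86 for Fosl1, which had the highest adjusted p, 0.354. For Map2k4 it ran from 0.62 to 0.99 with Chd8 siRNA and from 0.49 to 0.87 with Tsc2 siRNA. The range was 0.43 to 0.77 for Dusp1 and −0.80 to −0.47 for Mmp12. Fits of 8 libraries have fewer residual degrees of freedom.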

How the data were processed

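Total RNA of 9 libraries, 3 per siRNA, was sequenced. The authors deposited estimated counts, 1 per transcript and library, which they had obtained with Salmon 0.14.1 (mm10, the assembly GRCm38) and tximport and had neither normalized nor pooled. The annotation release is not given in the sources used here. Methods and labels name different library kits, an Illumina one and a stranded SMARTER one. Total counts were 16913448 to 33213801 per library, so that 3 counts were 0.0903 to 0.177 CPM, which covers counting error only.

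The estimated counts of 139852 of 140948 transcripts were summed to 54119 genes with GENCODE release M21 and rounded. The 1096 transcripts that were not matched held 0.27% of the counts. With edgeR 4.0.16 in R 4.3.3, filterByExpr left 16273 genes, libraries were scaled by TMM, and the quasi-likelihood test was fitted to all 9 libraries with siRNA as the only factor. A gene was called at a Benjamini-Hochberg FDR of 0.05 and a fold change of 1.5, the thresholds the authors used with DESeq2. For single genes, log2 CPM (pseudocount 0.5) was also compared by exact permutation, two-sided. Intervals are 95%. Levels per length divide each transcript's count by its annotated length. Figures were drawn with Python and matplotlib. The scripts were tested on simulated data.

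Replicate numbers come from the sample titles. Deviations from the group means correlated between every pair of libraries with the same number (9 pairs, r = 0.244 to 0.521), over genes, which are not independent replicates. Between other numbers r was −0.381 to 0.0363 (18 pairs). Those values add no separate support, because deviations sum to 0 within a group and so tend to be negative there. The numbers were therefore taken to pair the libraries, and the fit with replicate number as a block is given where it changes a call. The methods give a distinct brain for each culture and do not tie the numbers of different groups.

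The members and gene lists were chosen with earlier results of these data known. All 8 members are named in every comparison. Genes of other lists are named where called in a fit that is used, and otherwise by the lowest p. For Jun and Jdp2, the 5 genes with the highest Pearson r of log2 CPM (prior count 2) are named. Some genes that these rules select are not reported here. Alternatives were edgeR's RLE and upper-quartile factors, no filter, 1 CPM in 3 libraries, DESeq2 1.42.0, limma-voom (limma 3.58.1), the replicate block, 6 libraries, 1 transcript per gene, no fold-change threshold, and each library left out. The replicate block combined with DESeq2, limma-voom, 1 transcript per gene, or no fold-change threshold, and leaving out all libraries of a number, were added after the data were seen.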

Additional observations from a re-analysis of the deposited data

How the results depend on the processing

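Without the replicate block, 0 genes were called in each comparison (622, 425, and 504 at an unadjusted p under 0.05), also with RLE or upper-quartile factors, 1 CPM in 3 libraries, limma-voom, 6 libraries, no fold-change threshold, or a library left out (0 to 0). For Chd8 siRNA against control, Tsc2 siRNA against control, and Chd8 siRNA against Tsc2 siRNA, the count was 2, 1, and 0 with no filter, 9, 6, and 5 with DESeq2, and 87, 63, and 36 with the replicate block. Within the block, limma-voom called 140, 90, and 58 genes, DESeq2 133, 115, and 103, and edgeR with no fold-change threshold 169, 104, and 61. With a library left out of the block, counts ran from 20 to 108, from 7 to 131, and from 4 to 130, and fits of 8 libraries have fewer residual degrees of freedom. Against control, Chd8 siRNA had 29, 20, 25, and 29 calls without control libraries 2 and 3 and Chd8 siRNA libraries 2 and 3, and Tsc2 siRNA had 23, 7, 131, 16, and 14 without control libraries 2 and 3 and Tsc2 siRNA libraries 1, 2, and 3. For Chd8 siRNA against Tsc2 siRNA they were 81, 9, and 4 without Chd8 siRNA libraries 1, 2, and 3 and 130, 7, and 6 without those of Tsc2 siRNA.

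Of 278 log2 differences of members under alternatives that kept all libraries or dropped a whole group, 267 kept their direction. The other 11 were values near 0 that changed sign, and the cause was not tested. Jund for Tsc2 siRNA against control was −2.81e-05 with upper-quartile factors. Fos for Tsc2 siRNA against control was 0.0120 with the replicate block, 0.0162 with DESeq2 and the block, and 0.0192 with 1 transcript and the block. For Chd8 siRNA against Tsc2 siRNA, Jun was 0.00305 with limma-voom, and Fosl2 was −0.00537 with no filter, −0.0387 with limma-voom, −0.0966 with the block, −0.0444 with limma-voom and the block, −0.0882 with DESeq2 and the block, and −0.0164 with 1 transcript and the block. With a library or a number left out, 68 of 504 values changed sign. Against control, Chd8 siRNA ranged from −0.41 to 0.13 for Jun, −0.21 to 0.094 for Jund, −1.28 to 0.93 for Fosl2, and −0.064 to 0.31 for Batf. Tsc2 siRNA ranged from −0.41 to 0.20 for Jun, −0.021 to 0.17 for Junb, −0.087 to 0.18 for Jund, −0.24 to 0.33 for Fos, −1.08 to 0.93 for Fosl2, and −0.59 to 0.74 for Jdp2. Chd8 siRNA against Tsc2 siRNA ranged from −0.40 to 0.36 for Jun, −0.23 to 0.021 for Jund, −1.21 to 1.88 for Fosb, −1.10 to 0.90 for Fosl2, and −0.14 to 1.31 for Jdp2. No member tested was called in any fit. Fosb had 0 counts in 2 libraries, so its fold changes are imprecise.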
